A study of Mus musculus with 9 samples.

Results

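The 9 genes described here belong to the integrated stress response: *Atf4*, *Ddit3*, *Trib3*, *Ppp1r15a*, *Ppp1r15b*, *Chac1*, *Asns*, *Sesn2* and *Psat1*. They were taken by gene name from the 55401 genes of each of 3 expression tables, and all 9 were present. *Ddit3* named 2 rows, of which ENSMUSG00000116429.1 had 0 reads in every library, so ENSMUSG00000025408.15 stands for *Ddit3* below.

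In the integrated stress response, kinases that sense a lack of amino acids or heme, viral RNA or misfolded protein in the endoplasmic reticulum phosphorylate the translation factor eIF2α. Most protein synthesis then slows, while the mRNA of the transcription factor ATF4 is translated better, and ATF4 turns on genes for amino acid supply, redox balance and, with CHOP, cell death. The response ends when the phosphatase PP1 removes the phosphate from eIF2α, guided by GADD34 (*Ppp1r15a*) or CReP (*Ppp1r15b*). Since ATF4 is controlled largely at translation, its mRNA level does not show its protein level, and no protein was measured.

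RNA-Seq was done on splenocytes from a murine acute myeloid leukemia model termed H9M. The cells derived from lineage-negative bone marrow of C57BL/6-Ly5.1 mice given *Meis1* and *Hoxa9* by a gammaretroviral vector. They also carried a lentiviral FGB-D vector with a fluorescent color code and a barcode. Color-coded clones were mixed, transplanted with helper bone marrow into lethally irradiated C57Bl6/J mice and sorted from spleen by color code as CD45.1+, EGFRt bright, cKit+ and CD11b dim or negative. These features were shared by all 9 libraries, and ages and sexes of the mice were not given in the labels. All pre-malignant libraries came from mouse #15, which was killed before leukemia, with 1 library for each of 3 color-coded clones: 43BC-D, then 38BC-D, and also 33BC-D. De novo expanded libraries were the same clones at the leukemic endpoint, 38BC-D in mouse #13, 43BC-D in mouse #14 and 33BC-D in mouse #17. Stably expanded libraries all came from a single other clone, 34BC-D, taken from the same endpoint mice. With 3 libraries per group, a difference from the pre-malignant group cannot be told apart from a difference between mouse #15 and the endpoint mice or, for the stably expanded group, between clones. Library numbers (1 to 3 in each group) stand for no particular clone or mouse.

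Reads on genes ranged from 10379739 to 15551196 per library. Levels are given as reads of a gene per 1000000 reads on genes (CPM) or, between genes, as CPM per 1000 bases of exon (RPKM). All 6 markers of the sorted cells (*Kit*, *Itgam*, *Ptprc*, *Hoxa9*, *Meis1* and *Mpo*) had reads in every group. The de novo expanded libraries were unlike each other. *Mpo*, a granule enzyme of myeloid progenitors, was at 15800 CPM in library 3 and at 1640 and 2660 CPM in libraries 1 and 2. The other groups lay between, at 6140 to 8910 CPM. By mean chi-square per gene between 2 libraries, library 3 was 98.85 and 98.34 from libraries 1 and 2, which were 25.69 apart. From the stably expanded libraries it was 27.13 to 40.04, against 45.09 to 103.12 for libraries 1 and 2. Results for the de novo expanded group are therefore also given without library 3 for some genes and lists, among them those whose calls changed. Neither set of results is taken as the more correct one. Values printed only with library 3 may also depend on it. Marker sums of B cells and erythroid cells also differed between the groups, though not every marker moved alike. The 5 B cell markers summed to 209 to 252 CPM in pre-malignant, 72.4 to 201 CPM in de novo expanded and 84.5 to 102 CPM in stably expanded libraries, most of it *Ighm* (195 to 240, 61.9 to 192 and 68.0 to 83.0 CPM). The B cell marker *Cd79b* went the other way in the stably expanded group, at 4.66 to 10.1, 4.76 to 9.21 and 9.73 to 17.8 CPM. The 5 erythroid markers summed to 14.9 to 29.5, 1.76 to 12.0 and 2.02 to 20.7 CPM. Among them *Klf1* overlapped in all groups, at 0.304 to 1.35, 0.196 to 1.41 and 0.783 to 1.1 CPM.

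Each pair of groups was compared two-sided by limma, using log2(normalized count + 1). A call required a Benjamini-Hochberg adjusted p under 0.05 together with a 2-fold or larger difference. Genes entered a test when their normalized counts averaged 10 or more across both groups. The p-values measure the spread between these libraries, and the 3 pre-malignant libraries share 1 animal. An exact permutation test of 3 against 3 libraries cannot go below p = 0.1. In these sorted bulk samples, fewer cells that express a gene and less RNA per cell cannot be told apart.

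Per length, *Atf4* was the most abundant of the 9 mRNAs, with 81.9 ± 9.16 RPKM (SD, n = 9 libraries) and 64.0 as its lowest value, above every value of the other 8 genes. *Ppp1r15b* (31.4 ± 3.16), *Psat1* (24.9 ± 6.47) and *Ppp1r15a* (20.6 ± 11.6 RPKM) followed, and their ranges of 27.4 to 37.3, 19.9 to 38.0 and 7.74 to 38.6 RPKM overlapped. *Ddit3* (5.68 ± 1.74), *Sesn2* (3.59 ± 0.565) and *Asns* (2.5 ± 1.31 RPKM) were lower, also with overlapping ranges. *Chac1* at 0.350 ± 0.272 and *Trib3* at 0.122 ± 0.0899 RPKM were close to the limit of detection. The span across libraries differed as well. The highest library exceeded the lowest 1.36-fold for *Ppp1r15b*, 1.4-fold for *Atf4* and 1.49-fold for *Sesn2*, but 4.98-fold for *Ppp1r15a* and 5.84-fold for *Asns*.

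**Figure D1:**
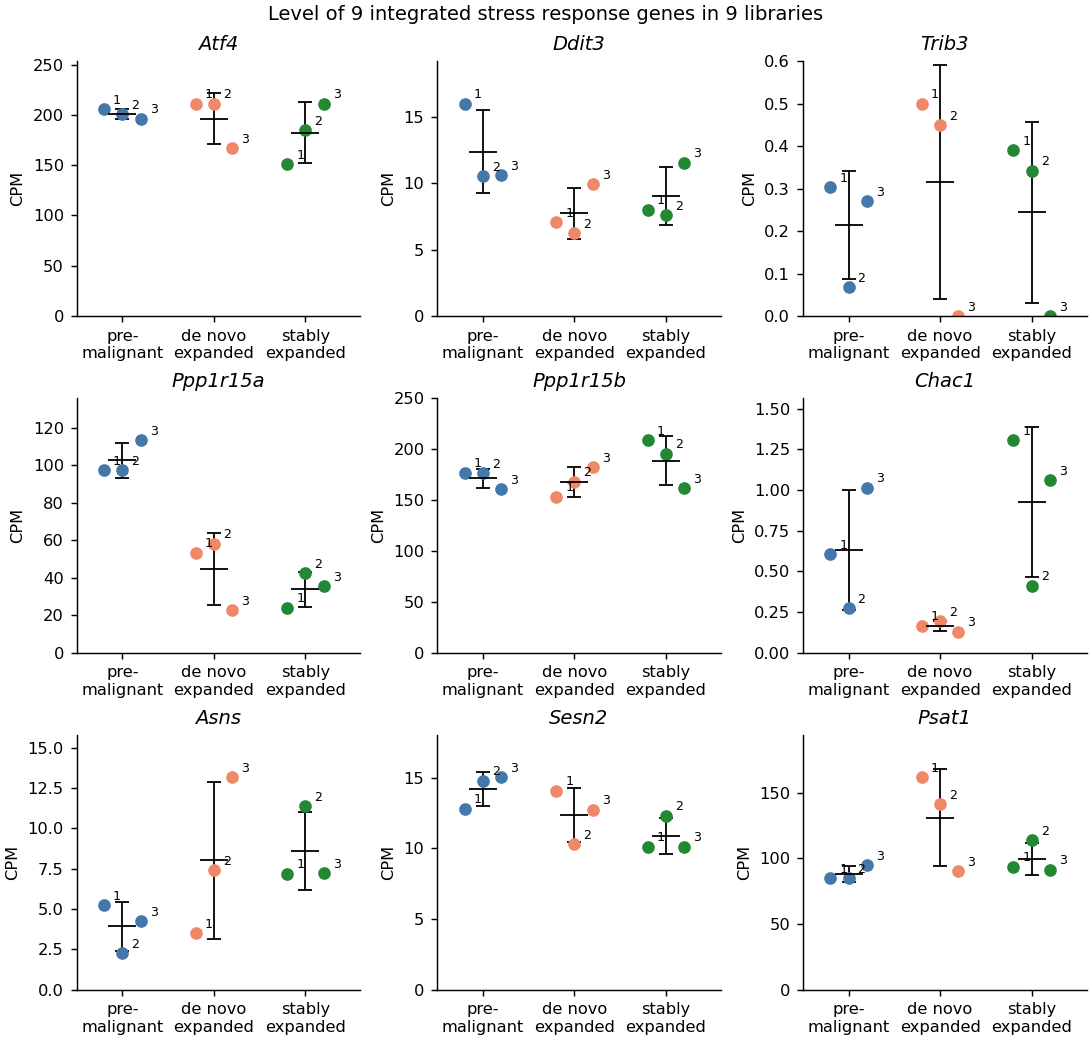
Level of each of the 9 genes (CPM, vertical axis, starting at 0, with a scale of its own per gene) in the 3 pre-malignant, 3 de novo expanded and 3 stably expanded libraries. Points are libraries with their numbers, and lines give the mean ± SD of 3 libraries. *Ppp1r15a* lies at 97.1 to 113 CPM in the pre-malignant libraries and at 22.7 to 58.1 CPM in all 6 others, whereas *Atf4* overlaps in all 3 groups.

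ATF4 and CHOP act through DNA elements near their targets, so the 250 bases upstream of the RefSeq start (assembly GRCm38.p6) were searched on both strands for 3 motifs that share no match here. These were the C/EBP-ATF response element (CARE, TGATGNAA), the cyclic AMP response element (CRE, TGACGTCA) and the AP-1 site (TGANTCA). Windows were found for 8 of the 9 genes, 9 windows in all because *Psat1* had 2. CARE occurred in 2 of these 9 windows and in 3.45% of 32851 promoter windows of the same length, CRE in 1 of 9 and in 1.55%, and AP-1 in 1 of 9 and in 6.75%. The 4 windows with a match are printed 5′ to 3′ on the strand of the gene with the match in capitals, because they belong to the 2 genes with the widest range across libraries among those tested in all 3 comparisons and to *Chac1* and *Ddit3*. *Ppp1r15a* (chr7:45526269-45526518, minus strand) had a CRE that begins 12 bases before the start. *Asns* (chr6:7693210-7693459, minus strand) had a CARE 23 bases before it, *Chac1* (chr2:119350992-119351241, plus strand) a CARE 193 bases before it on the opposite strand, and *Ddit3* (chr10:127290543-127290792, plus strand) an AP-1 site 242 bases before it. A match describes these letters and is not a shown binding site.
Ppp1r15a: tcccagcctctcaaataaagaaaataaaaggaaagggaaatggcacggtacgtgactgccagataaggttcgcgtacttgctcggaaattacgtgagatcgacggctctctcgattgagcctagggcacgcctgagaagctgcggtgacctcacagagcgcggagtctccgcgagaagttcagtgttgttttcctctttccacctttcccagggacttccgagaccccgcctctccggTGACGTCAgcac
Asns: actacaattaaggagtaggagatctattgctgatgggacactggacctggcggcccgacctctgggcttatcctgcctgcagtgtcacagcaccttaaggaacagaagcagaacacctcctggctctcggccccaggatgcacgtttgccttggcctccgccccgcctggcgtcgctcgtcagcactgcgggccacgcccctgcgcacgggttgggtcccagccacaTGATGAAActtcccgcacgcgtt
Chac1: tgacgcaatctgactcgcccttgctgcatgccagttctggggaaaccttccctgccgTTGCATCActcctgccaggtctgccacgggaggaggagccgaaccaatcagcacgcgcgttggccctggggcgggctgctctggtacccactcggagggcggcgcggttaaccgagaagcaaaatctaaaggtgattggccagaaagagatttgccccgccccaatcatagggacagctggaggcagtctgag
Ddit3: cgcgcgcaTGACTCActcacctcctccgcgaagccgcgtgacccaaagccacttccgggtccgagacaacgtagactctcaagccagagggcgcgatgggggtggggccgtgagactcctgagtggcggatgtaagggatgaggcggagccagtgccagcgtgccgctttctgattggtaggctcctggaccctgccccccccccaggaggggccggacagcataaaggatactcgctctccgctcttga

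The 2 transcription factors of the response were *Atf4* (chromosome 15, 80255184 to 80257541) and *Ddit3* (chromosome 10, 127290774 to 127296288), which encodes CHOP. *Atf4* was measured at 205, 201 and 196 CPM in the pre-malignant libraries, 211, 211 and 167 CPM in de novo expanded and 151, 185 and 211 CPM in stably expanded libraries. All 3 groups overlapped, and the spread was wider in both leukemic groups (coefficients of variation of 13.1% and 16.5%) than in the pre-malignant group (2.34%). The log2 fold change was -0.02 (95% confidence interval -0.28 to 0.23) for de novo expanded over pre-malignant and -0.15 (-0.41 to 0.12) for stably expanded over pre-malignant, so both intervals end well within a 2-fold change.

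*Ddit3* had 16, 10.5 and 10.6 CPM in pre-malignant, 7.09, 6.24 and 9.93 CPM in de novo expanded and 8.03, 7.61 and 11.6 CPM in stably expanded libraries. The de novo expanded libraries were all below the pre-malignant ones, by 0.616 CPM at the nearest, while the stably expanded libraries overlapped both. The log2 fold changes were -0.65 (standard error 0.27, adjusted p = 0.437 by limma) for de novo expanded and -0.44 (0.25, adjusted p = 0.310) for stably expanded over pre-malignant, and neither passed the test. Without de novo expanded library 3 the first was -0.86 (adjusted p = 0.0908). The gene overlaps *Mars* on the other strand by 68 bases, and whether counting used strand was not given in the sources used here, so reads of that stretch are uncertain.

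*Ppp1r15a* (ENSMUSG00000040435.12, chromosome 7, 45522916 to 45526268, minus strand) was the gene with the clearest difference. It encodes GADD34, the stress-inducible subunit that brings PP1 to eIF2α. Its level was 97.1, 97.2 and 113 CPM in pre-malignant, 53.2, 58.1 and 22.7 CPM in de novo expanded and 23.9, 42.3 and 35.5 CPM in stably expanded libraries. Every leukemic library lay below every pre-malignant one, and the 2 leukemic groups overlapped. *Ppp1r15a* was 3.09-fold lower in the stably expanded than in the pre-malignant group, or lower by 1.63 on the log2 scale (standard error 0.18, 95% confidence interval -2.02 to -1.23, adjusted p = 0.00284 by limma). This was the only member called there. It was called with any 1 library left out (log2 fold changes -1.79 to -1.40, adjusted p 0.00102 to 0.0125 by limma), and the call was lost (adjusted p = 0.0791, log2 fold change -1.63) when all 9 libraries were fitted together with 1 shared spread.

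For de novo expanded over pre-malignant, the log2 fold change of *Ppp1r15a* was -1.29 (standard error 0.33, 95% confidence interval -2.05 to -0.53) with an unadjusted p of 0.0048 and an adjusted p of 0.360 by limma. The value depended on de novo expanded library 3. Without it the log2 fold change was -0.87, under 2-fold, with an adjusted p of 0.00431. DESeq2 on the recovered reads called the gene at -1.19 with an adjusted p of 0.0322. Between the 2 leukemic groups the log2 fold change was -0.32 (95% confidence interval -1.19 to 0.55, adjusted p = 0.928), an interval that includes a 2-fold lower level in the stably expanded clone. Without de novo expanded library 3 this value was -0.74 (adjusted p = 0.0786). The B cell and erythroid marker sums given above were also highest in the pre-malignant group, apart from overlap of the erythroid sum with the stably expanded group, and their part in the difference was not tested.

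*Ppp1r15b* (chromosome 1, 133131143 to 133139783) encodes CReP, the constitutive partner of PP1 for the same substrate. It stood at 176, 176 and 161 CPM in pre-malignant, 153, 168 and 182 CPM in de novo expanded and 208, 195 and 161 CPM in stably expanded libraries. The groups overlapped in all 3 comparisons. Its log2 fold changes were -0.02 (95% confidence interval -0.26 to 0.23) and 0.14 (-0.10 to 0.37) over pre-malignant for the de novo and the stably expanded group. Per length, the ratio of *Ppp1r15a* to *Ppp1r15b* mRNA was 1.05, 1.05 and 1.34 in pre-malignant libraries, 0.662, 0.660 and 0.238 in de novo expanded and 0.219, 0.412 and 0.418 in stably expanded libraries. The ratio was thus lower in all 6 leukemic libraries, where *Ppp1r15a* was the less abundant mRNA per length, than in the 3 pre-malignant ones. Pre-malignant ratios of 1.05 are too near 1 to rank the pair, since the exon lengths come from the annotation. The ratio is a description and uses the same *Ppp1r15a* values as the comparison above.

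*Asns* (chromosome 6, 7675169 to 7693254), for asparagine synthetase, is a classical ATF4 target. It had 5.24, 2.26 and 4.26 CPM in pre-malignant, 3.50, 7.39 and 13.2 CPM in de novo expanded and 7.18, 11.4 and 7.23 CPM in stably expanded libraries. The stably expanded libraries all lay above the pre-malignant ones, and the de novo expanded libraries ranged from below the highest pre-malignant value to the highest value of all 9. The log2 fold change was 1.17 (standard error 0.35, 95% confidence interval 0.40 to 1.94) for stably expanded over pre-malignant with an adjusted p of 0.0650 by limma, just outside the limit. It was called (adjusted p = 0.0293 by limma) when no filter on low counts was set, where 1.29% of all genes were called. The adjusted p lay between 0.0610 and 0.229 under the other settings tried, those that leave out 1 library included. For de novo expanded over pre-malignant the log2 fold change was 0.93 (standard error 0.53, adjusted p = 0.541), and 0.46 without de novo expanded library 3.

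*Psat1* (chromosome 19, 15904678 to 15947337) encodes phosphoserine aminotransferase of serine synthesis. It was at 84.8, 84.6 and 94.8 CPM in pre-malignant, 162, 141 and 89.9 CPM in de novo expanded and 93.5, 114 and 91.1 CPM in stably expanded libraries. De novo expanded libraries 1 and 2 were above all others, and library 3 lay within the pre-malignant range. The log2 fold change was 0.55 (standard error 0.20, unadjusted p = 0.0292, adjusted p = 0.417 by limma) for de novo expanded over pre-malignant. Without library 3 it was 0.79 with an adjusted p of 0.00526, and *Psat1* was then also lower in the stably than in the de novo expanded group (-0.60, adjusted p = 0.0248), both under the 2-fold limit. For stably expanded over pre-malignant the log2 fold change was 0.17 (95% confidence interval -0.06 to 0.41). Among the de novo expanded libraries, *Asns* was thus highest and *Psat1* lowest in the same one as the highest *Mpo*.

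*Sesn2* (chromosome 4, 132492032 to 132510501) encodes a leucine sensor that restrains mTORC1. Its levels were 12.8, 14.8 and 15.1 CPM in pre-malignant, 14.1, 10.3 and 12.7 CPM in de novo expanded and 10.1, 12.3 and 10.1 CPM in stably expanded libraries. The stably expanded libraries lay below the pre-malignant ones by 0.491 CPM at the nearest. The log2 fold change was -0.39 (standard error 0.18, 95% confidence interval -0.79 to 0.02, adjusted p = 0.215 by limma), which did not pass the test.

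*Chac1* (chromosome 2, 119351229 to 119354381) encodes a glutathione-degrading enzyme and is a sensitive target of ATF4. It had 8, 4 and 15 reads in pre-malignant, 2, 3 and 2 reads in de novo expanded and 20, 6 and 11 reads in stably expanded libraries. All 3 de novo expanded libraries lay below all others. Summed over 3 libraries, reads scaled to depth were 3.88-fold higher in pre-malignant than in de novo expanded libraries (95% exact binomial interval 1.65 to 10.6) and 5.62-fold higher in stably than in de novo expanded libraries (2.47 to 14.9). These intervals cover counting error only and not the spread between libraries, and the gene was too low to be tested in either comparison. For stably expanded over pre-malignant it was tested, at 0.52 on the log2 scale (adjusted p = 0.663 by limma, standard error 0.67).

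*Trib3* (chromosome 2, 152337422 to 152344032), for a pseudokinase induced by ATF4 and CHOP, had 4, 1 and 4 reads in pre-malignant, 6, 7 and 0 in de novo expanded and 6, 5 and 0 in stably expanded libraries. A count of 0 allows up to 3 reads, so no difference was detectable at this depth.

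Across the 9 genes, 7 were tested for de novo expanded over pre-malignant, and 0 were called by limma, which called 0 of 14195 genes (0%). At an unadjusted p under 0.05 there were 3 of the 7 (*Ppp1r15a*, *Ddit3* and *Psat1*), against 11.3% of all genes. Values were above 0 for 2 of the 7 genes, against 51% of all genes. edgeR called 0 members, against 0 of 14195 genes, and DESeq2 called 1, against 42 of 41164 genes (0.102%). Groups did not overlap in 2 of the 7 genes, *Ppp1r15a* and *Ddit3*, both lower in the de novo expanded libraries, where 19.1% of all genes had no overlap, 10.6% higher and 8.5% lower. The median log2 fold change was -0.02 for the 7 genes and 0.01 for all genes.

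For stably expanded over pre-malignant, 8 genes were tested and 1 was called (*Ppp1r15a*), against 2.75% of 13968 genes. Groups did not overlap in 3 of the 8 genes, *Ppp1r15a* and *Sesn2* lower and *Asns* higher, against 30.7% of all genes (16.1% higher and 14.6% lower), so the share was near the background. An unadjusted p under 0.05 was found for 2 of the 8, against 25.4% of all genes. The median log2 fold change was -0.01, and values were above 0 for 4 of the 8 genes, against 50.5% of all genes. Between stably and de novo expanded groups 0 of 7 tested genes were called by limma or edgeR, against 0.00727% of 13758 genes. DESeq2, run without the filter on low counts, called none of these 7, against 0.0774% of 37490 genes. By limma 0 of 7 had an unadjusted p under 0.05, against 4.83% of all genes. Values were above 0 for 3 of the 7 genes (49.6% of all genes), and the groups overlapped in all 7 (no overlap in 9.61% of all genes). Both comparisons with the pre-malignant group use the same 3 pre-malignant libraries.

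**Figure D2:**
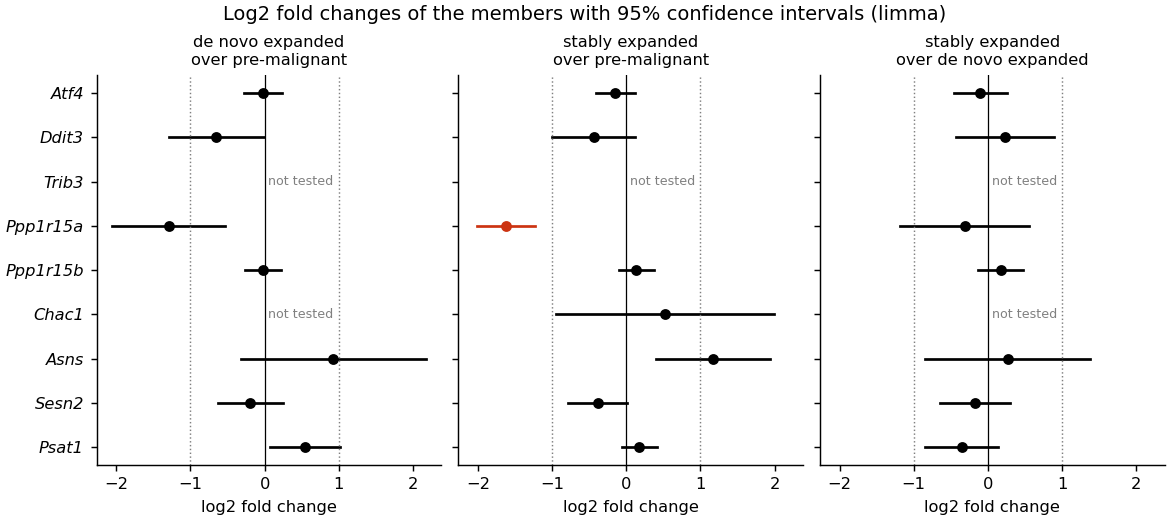
Log2 fold change of each gene (horizontal axis) with its 95% confidence interval from limma in the 3 comparisons, 3 libraries per group. Dotted lines mark a 2-fold change and red marks a called gene. *Ppp1r15a* at -1.63 in stably expanded over pre-malignant is the single called value, and genes that were too low are marked as not tested.

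To find the mRNA with the profile nearest to each gene, the gene with the smallest root mean square difference in centred log2(CPM + 1) over the 9 libraries was taken from 13402 genes. The median difference over these genes was 0.278 to 0.834, depending on the member. *Atf4*, *Ppp1r15b* and *Sesn2* themselves varied by only 0.161, 0.133 and 0.201 on this scale, so a small difference says little for them. For *Psat1* it was *Slc7a5* (0.076), the large neutral amino acid transporter, with 63.7, 67.2 and 73.3 CPM in pre-malignant, 124, 113 and 64.2 CPM in de novo expanded and 69.8, 99.3 and 69.8 CPM in stably expanded libraries. Both genes were highest in de novo expanded libraries 1 and 2 and near the pre-malignant level in library 3. For *Ppp1r15a* it was *Sowahc* (0.162), at 76.1 to 84.9 CPM in pre-malignant and 20.2 to 54.0 CPM in leukemic libraries. For the other genes it was *Vps50* for *Atf4* (0.073), *Stat2* for *Ddit3* (0.128), *Klhdc10* for *Ppp1r15b* (0.051), *Gm26493* for *Sesn2* (0.078) and *Cd80* for *Asns* (0.257). *Cd80* stayed at or below 3.84 CPM and *Gm26493* at or below 1.5 CPM, so these last 2 rest on few reads. The points share library, depth and clone, and the likeness is a description.

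**Figure D3:**
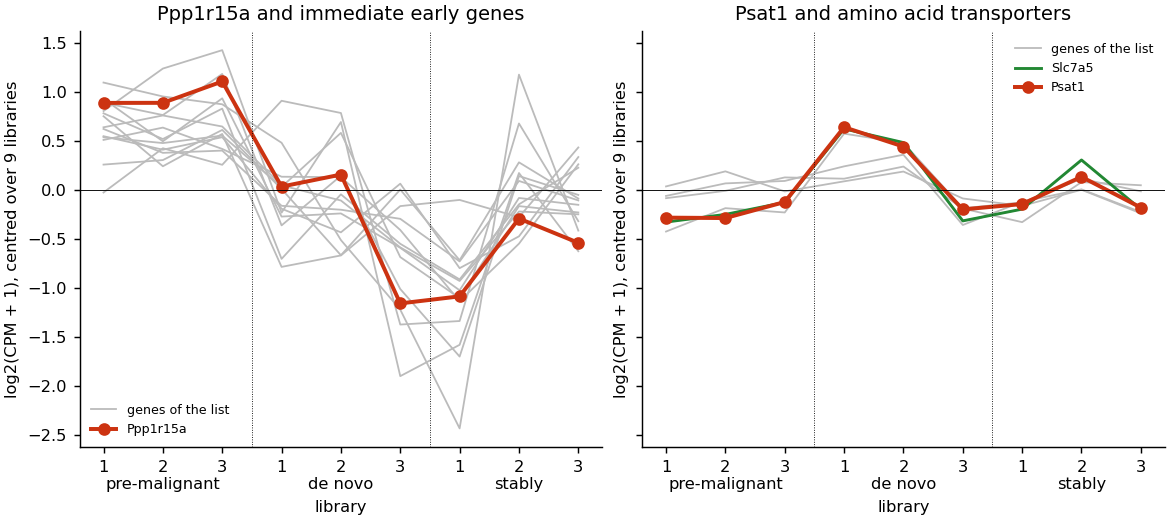
Centred log2(CPM + 1) in each of the 9 libraries (horizontal axis, 3 per group, in no order within a group). The left panel shows *Ppp1r15a* in red over the immediate early genes in grey, and the right panel *Psat1* in red over the amino acid transporters, with *Slc7a5* in green, which had a root mean square difference of 0.076 from *Psat1*.

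Upstream of ATF4, none of the 4 eIF2α kinase genes was called. All 4 had values below 0 in both comparisons with the pre-malignant group (medians -0.21 and -0.12). *Eif2ak1* (-0.04 for de novo and -0.05 for stably expanded) and *Eif2ak4* (-0.08 and -0.0012), named after their values were seen, were near 0. With 1 library left out, 1 of the 4 was above 0 without de novo expanded library 1 or 3, and, for the stably expanded group, without pre-malignant library 2 or stably expanded library 1 or 2. The de novo expanded median was -0.11 without its library 1 and -0.43 without its library 3, and the stably expanded one was -0.08 without pre-malignant library 1. The lowest was *Eif2ak3*, for the endoplasmic reticulum kinase PERK, at 74.5, 80.0 and 80.7 CPM in pre-malignant and 50.5 to 62.9 CPM in the 6 leukemic libraries, with log2 fold changes of -0.57 (adjusted p = 0.320 by limma) for de novo and -0.39 (adjusted p = 0.0539) for stably expanded. *Eif2ak2*, for the RNA-sensing kinase PKR, showed -0.34 and -0.18. Of the 8 subunits of eIF2 and eIF2B, 7 had values above 0 in the de novo and 8 in the stably expanded group (7 after quantile normalization), with medians of 0.24 and 0.25, and none was called. *Eif2s1*, which encodes eIF2α itself, was at 60.9 to 71.1 CPM in pre-malignant and 72.6 to 89.5 CPM in leukemic libraries (log2 fold changes 0.42 and 0.33, adjusted p = 0.360 and 0.0918 by limma), and *Eif2s2*, for eIF2β, showed 0.43 and 0.31.

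Among 8 genes of bZIP factors that pair with or act beside ATF4, 1 was called in the stably expanded group, where 2.75% of all genes were called. *Atf3*, a stress-induced repressor, was lower there than in the pre-malignant group by 2.30 on the log2 scale (standard error 0.59, adjusted p = 0.0381 by limma). It had 36.5, 18.6 and 35.1 CPM in pre-malignant, 9.60, 14.9 and 3.66 CPM in de novo expanded and 1.70, 9.25 and 11.9 CPM in stably expanded libraries, so all leukemic libraries were below all pre-malignant ones. For de novo expanded over pre-malignant its log2 fold change was -1.81 (adjusted p = 0.380). The call was lost without pre-malignant library 1, 2 or 3 (adjusted p = 0.124, 0.0757 and 0.102 by limma) and in DESeq2 (0.219). For de novo expanded over pre-malignant, *Atf3* was called by DESeq2 (-1.67, adjusted p = 0.0367) and by limma without de novo expanded library 3 (-1.25, adjusted p = 0.0440). *Jdp2*, named after its values were seen, went the other way for stably expanded over pre-malignant. It was at 0.998 (adjusted p = 0.00417 by limma), just under the 2-fold limit, and at 0.37 (adjusted p = 0.631) for de novo expanded. Without pre-malignant library 1 or 2 and in DESeq2, 1 gene of the list other than *Atf3* was called for the stably expanded group. Of all genes, 1.73%, 1.49% and 0.966% were called there. Without stably expanded library 2 or 3, 2 genes of the list were called, against 3.23% and 2.95% of all genes.

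Genes for amino acid supply showed small differences. Of 14 aminoacyl-tRNA synthetase and tRNA export genes, 13 had values above 0 in each leukemic group against pre-malignant (medians 0.24 and 0.18, against 0.01 and 0.00 for all genes), and none was called. For the stably expanded group the number was 12 after centring on the median and 11 after quantile normalization. *Nars*, for asparaginyl-tRNA synthetase, was at 134 to 153 CPM in pre-malignant and 201 to 222 CPM in stably expanded libraries (0.56, adjusted p = 0.00877 by limma, under 2-fold), and at 132, 114 and 264 CPM in de novo expanded libraries. *Tars*, for threonyl-tRNA synthetase, showed 0.33 and 0.38 (adjusted p = 0.399 and 0.0429). Of 11 genes of amino acid and one-carbon synthesis, 8 were tested, 5 had values above 0 in each comparison (medians 0.29 and 0.13), and none was called. For the de novo expanded group, all 8 were above 0 without library 3 (median 0.56) and 4 of 8 without library 1 (0.05). The stably expanded median ranged from -0.06 to 0.27 with 1 library left out, and it was below 0 without library 1 of the pre-malignant group (-0.04) or library 2 of the stably expanded group (-0.06). Between the leukemic groups 1 gene of this list was called without de novo expanded library 3: *Phgdh*, for the first step of serine synthesis, named after its values were seen, at -1.83 for stably over de novo expanded (adjusted p = 0.0312 by limma). That setting called 508 of 13756 genes (3.69%). *Psph*, which acts right after *Psat1* in serine synthesis, was at 12.2 to 14.6 CPM in pre-malignant and 17.8 to 24.3 CPM in leukemic libraries (0.65 and 0.62, adjusted p = 0.380 and 0.0510). *Aldh18a1*, for proline synthesis, showed 0.31 and 0.38. Of 9 amino acid transporters, 5 were tested and none was called. *Slc7a1*, a transporter of basic amino acids, was at 171, 161 and 101 CPM in de novo expanded libraries against 85.2 to 101 CPM in pre-malignant ones, again lowest in library 3.

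Of 14 other targets of ATF4 or CHOP, 10 were tested and 1 was called, in the stably expanded group, where 2.75% of all genes were called. Against pre-malignant, 3 of the 10 had values above 0 in the de novo expanded group (5 in edgeR) and 7 in the stably expanded group. *Vegfa*, an angiogenic factor that is also induced by hypoxia, was higher in the stably expanded than in the pre-malignant group by 1.26 on the log2 scale (standard error 0.26, adjusted p = 0.0173 by limma). Its levels were 67.8 to 133 CPM against 29.0 to 50.2 CPM. In the de novo expanded libraries it was at 9.51, 14.7 and 146 CPM, so library 3 alone lay above the pre-malignant range. Without stably expanded library 1 the *Vegfa* value was 1.04 (adjusted p = 0.0523). Without de novo expanded library 3, *Vegfa* was called in both comparisons of that group, at -1.78 for de novo expanded over pre-malignant (adjusted p = 0.00567 by limma) and 3.06 for stably over de novo expanded (adjusted p = 0.00104), against -0.57 (adjusted p = 0.855) with it in the former. That setting called 1.5% of all genes in the former comparison and 3.69% in the latter. *Herpud1* and *Ero1l*, both under the 2-fold limit, were named after their values were seen. Over pre-malignant, *Herpud1* was at -0.56 in the stably expanded (adjusted p = 0.0146 by limma) and -0.51 in the de novo expanded group (adjusted p = 0.360). *Ero1l* was at 0.68 (adjusted p = 0.0484) and 0.20 (adjusted p = 0.743). Not tested for low counts were *Stc2*, *Nupr1*, *Fgf21* and *Gdf15*, with 2 to 55 reads each over all 9 libraries. Of the 14 genes of the ATF6 and XBP1 arms, which serve protein folding in the endoplasmic reticulum, 7 and 6 had values above 0 and none was called. *Ern1*, for the sensor IRE1α, was lower by 0.70 in the stably expanded than in the pre-malignant group (adjusted p = 0.00877 by limma, under the 2-fold limit). Its levels were 224 to 311 CPM against 409 to 441 CPM. *Manf* showed 0.23 and 0.34.

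GADD34 is also known as an early response gene, so immediate early genes were set beside it. Of 14 genes 13 were tested, and all 13 had values below 0 in both comparisons (medians -0.89 and -1.0), apart from 1 gene above 0 in edgeR and 2 of 14 in DESeq2 for the de novo expanded group, 1 of 14 in DESeq2 and without a filter for the stably expanded group, and 1 without de novo expanded library 3. In the stably expanded clone 5 of the 13 were called, all lower: *Fos*, *Junb*, *Klf4*, *Klf6* and *Zfp36*. Of all genes, 2.75% were called in this comparison and 50.5% had values above 0. The count ranged from 1 to 8 with 1 library left out, where 1.48% to 3.23% of all genes were called, with 7 and 8 called without stably expanded libraries 2 and 3. It was 3 by DESeq2 (0.966% of all genes), 4 by edgeR (2.7%) and 6 without a filter (1.29%). After quantile normalization (2.65%) or centring on the median (2.84%) it was 7. *Junb*, an AP-1 subunit, was at 98.3, 107 and 98.8 CPM in pre-malignant, 64.8, 58.1 and 41.4 CPM in de novo expanded and 32.4, 53.7 and 52.6 CPM in stably expanded libraries (log2 fold changes -0.89 and -1.16, adjusted p = 0.320 and 0.00544 by limma). *Fos* was at 482 to 645 CPM in pre-malignant libraries, and de novo expanded library 3 (140 CPM) and stably expanded library 1 (86.4 CPM) were its lowest, as for *Ppp1r15a*. Without stably expanded library 1, 1 of the 5 was still called (*Klf4*), since *Fos*, *Junb*, *Klf6* and *Zfp36* were at -0.91, -0.93, -0.73 and -0.91 with adjusted p of 0.00743, 0.00354, 0.00689 and 0.0109 by limma. With 1 pre-malignant library left out, 2 to 3 genes were called, and the lost calls were those of *Fos* (without library 1, 2 or 3, adjusted p = 0.0948, 0.0930 and 0.0975), *Klf6* (without 1 or 2, 0.0505 and 0.0568) and *Klf4* (without 2 or 3, 0.0613 and 0.0501). Without de novo expanded library 3, 5 of the 13 were called for de novo expanded over pre-malignant as well (*Fos*, *Zfp36*, *Btg2*, *Dusp1* and *Egr1*, the last 3 named after their values were seen), where 214 of 14224 genes (1.5%) were called. With all libraries, DESeq2 called 4 in this comparison (*Fos*, *Zfp36*, *Btg2* and *Dusp1*), against 42 of 41164 genes (0.102%), and limma without a filter called *Zfp36*, against 5 genes in all (0.0121%). Of 10 heat shock genes 9 were tested and none was called. *Hsp90aa1*, a cytosolic chaperone, was at 315 to 392 CPM in pre-malignant and 468 to 784 CPM in leukemic libraries (0.66 and 0.67, adjusted p = 0.330 and 0.0417), and *Dnaja1* showed -0.34 and -0.25.

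**Figure D4:**
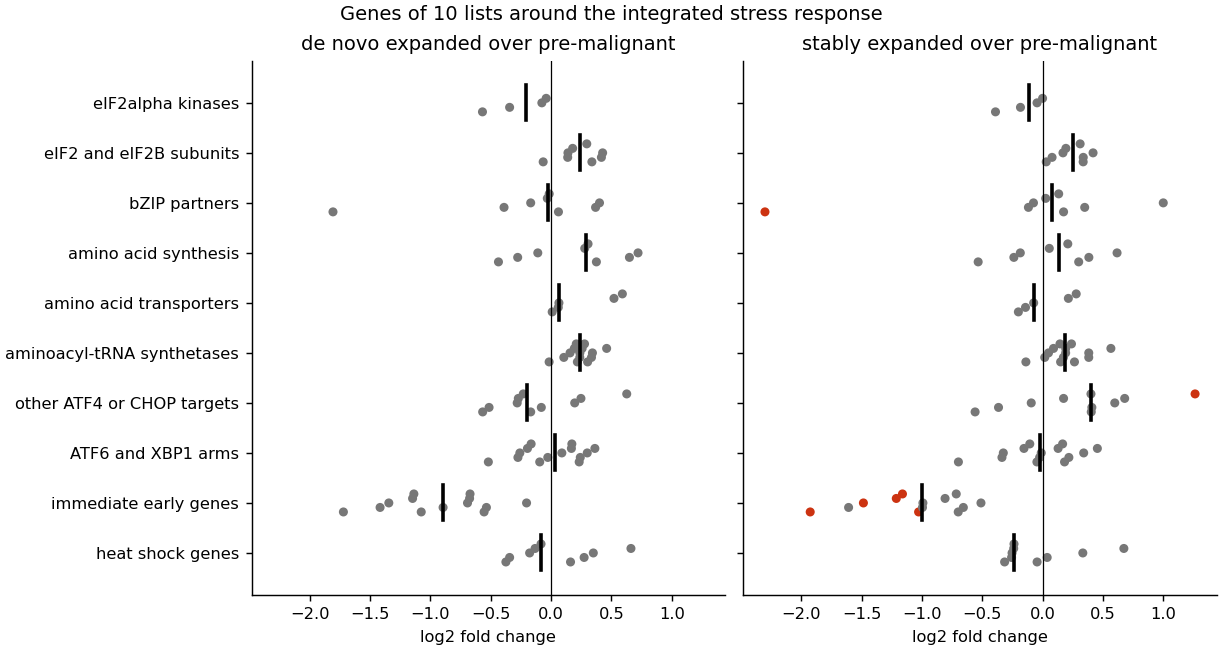
Log2 fold change (horizontal axis) of the tested genes of 10 lists in both comparisons with the pre-malignant group. Each point is a gene, the bar is the list median and red points were called. The immediate early genes lie below 0 with medians of -0.89 and -1.0, whereas the medians of the other lists range from -0.24 to 0.40.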

How the data were processed

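RNA-Seq was done on 9 libraries, 3 per group, made with a stranded total RNA kit. According to the submitters' processing notes, reads were trimmed with Trim Galore 0.6.4, aligned with STAR 2.6.1d to GRCm38.p6 and counted with featureCounts 1.6.4. The authors deposited 1 table per pair of groups, with read counts divided by DESeq2 size factors over its 6 libraries (normalized counts, a signal). Gene lengths and coordinates came with the deposited tables. Their columns of fold changes, standard errors, Wald statistics and p-values hold the authors' own comparisons and were not used.

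Whole reads were recovered from the normalized counts (99.9926% or more of nonzero values within 0.05 reads of a whole number), and CPM and RPKM were computed from them. Any 2 libraries differed by more than sampling noise. Columns could be matched to groups, not to a clone or mouse. A further modification that all 9 libraries share is not reported here. Tests used limma 3.58.1 with an empirical Bayes trend in R 4.3.3 and were tested on simulated data. Alternatives were pseudocounts of 0.1 and 5, no filter or a minimum of 50, quantile normalization, centring on the median, edgeR 4.0.16 and DESeq2 1.42.0 on recovered reads, 1 fit of all libraries, no fold limit and leaving out each library. Python 3.11.15 (pandas 2.3.3, numpy 2.4.6, matplotlib 3.10.9) made the tables and figures, and read ratios carry exact 95% intervals from scipy 1.17.1.

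The members, the 10 gene lists and the 6 marker lists were chosen with earlier results of these data known. Named genes were the members, the called genes of each list or, where none was called, the 2 with the smallest p, and the nearest gene of each tested member. Genes said to be named after their values were seen fall outside this rule. *Mars1* is listed as *Mars*. T cell markers summed to at most 2.81 CPM and platelet markers to at most 3.04 CPM. Macrophage markers summed to 87.3 to 183, 53.5 to 242 and 171 to 229 CPM in the pre-malignant, de novo and stably expanded libraries.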

Additional observations from a re-analysis of the deposited data

How the results depend on the processing

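The number of genes called depended on the setting more than the values of the members did. For de novo expanded over pre-malignant, 0 genes were called, with 5 without a filter on low values, 42 by DESeq2, 5 in a fit of all 9 libraries and 0 to 214 with 1 library left out, the 214 without de novo expanded library 3. For stably expanded over pre-malignant, 384 genes were called, with 6 in the fit of all 9 libraries, 1110 without the fold limit and 206 to 452 with 1 library left out (240, 206 and 219 without pre-malignant libraries 1, 2 and 3, and 208 without stably expanded library 1). Between the leukemic groups 1 gene was called, with 2 without a filter, 29 by DESeq2, 2 in the fit of all 9 libraries and 0 to 508 with 1 library left out (508 without de novo expanded library 3, 2 without library 1, and 0 without any 1 stably expanded library). DESeq2 called 1 member for de novo expanded over pre-malignant instead of 0, against 0.102% of all genes. For stably expanded over pre-malignant, 2 members instead of 1 were called without a filter and 0 in the fit of all 9 libraries, which also called none of *Atf3*, *Vegfa* and the 5 immediate early genes. Of all genes, 525 of 40665 (1.29%) were called without a filter and 6 of 13960 (0.043%) in that fit. Of 196 member values under the other settings, 193 kept their direction and side of the threshold, 1 lost its call, 2 gained one and 0 changed sign. With 1 library left out, 5 of 129 changed sign, none of them called. For de novo expanded over pre-malignant these were *Atf4* (-0.0763 to 0.0797, the latter without de novo expanded library 3) and *Ppp1r15b* (-0.0875 to 0.0511, and 0.0511 and 0.0137 without de novo expanded and pre-malignant library 1). For stably over de novo expanded they were *Atf4* (-0.2261 to 0.0172, the latter without stably expanded library 1) and *Asns* (-0.2321 to 0.7253, the former without de novo expanded library 1). The called value of *Ppp1r15a* ranged from -1.79 to -1.40. No paired analysis was possible because the columns carry no clone or mouse number. At this depth *Trib3*, and *Chac1* in the de novo expanded libraries, had too few reads for a test.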
